A study of Homo sapiens with 6 samples.

Results

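The genes of DNA replication and of the passage from G1 into S phase were examined in RNA-seq of Caki-1 cells, a line established from a human clear cell renal carcinoma, with and without the tumor suppressor gene VHL. The genes were chosen by their known function, with earlier results of these data known, and were listed by symbol. The set holds 44 of the 60708 genes in the deposited table of counts. Control cells (VC) had a wild-type genotype and were infected with a lentiviral CRISPR vector carrying no guide. VHL-KO cells received the same kind of lentivirus with a guide RNA against VHL, were selected with puromycin and were grown as clonal lines. Which of the 2 guides listed for human VHL was used, and the number of clones behind the 3 VHL-KO samples, are not given in the sources used here, so an effect of the knockout and a trait of a clone cannot be told apart. There were 3 samples per group, with 31789923, 28463579 and 34881739 counted reads in VC replicates 1 to 3 and 29139722, 22805385 and 22628246 in VHL-KO replicates 1 to 3. Nothing in the labels says that replicates came from separate cultures, so p-values measure only the spread between these samples, which may be technical.

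In G1 phase the origin recognition complex, CDC6 and CDT1 load the MCM2-7 helicase onto origins of replication, a step called licensing. On entry into S phase, cyclin E with its kinase and the kinase DBF4-CDC7 turn loaded helicases into active ones that also carry CDC45 and the GINS complex, and polymerases, the sliding clamp PCNA and its loader RFC then copy the DNA. Many of these genes are transcribed in a wave at the G1/S boundary under E2F transcription factors, which the retinoblastoma protein holds in check in resting cells, and their transcripts are widely used as markers of proliferating cells.

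The edited gene was examined first. VHL, on chromosome 3, had 42.6, 37.8 and 40.1 normalized CPM in the VC samples and 34.8, 30.4 and 30.5 in the VHL-KO samples, where CPM are counts divided by library size and scaled by edgeR's TMM factors. The groups did not overlap, but the difference was small, with a log2 fold change of -0.33 ± 0.11 (SE, n = 3 per group; Benjamini-Hochberg adjusted p = 0.0109 by the quasi-likelihood test of edgeR). This call was lost without VC replicate 1, without VHL-KO replicate 2, with upper quartile factors and with offsets for GC content, and the adjusted p of the same quasi-likelihood test with Benjamini-Hochberg adjustment ranged from 0.000293 to 0.262 over the alternatives. A gene on the opposite strand overlaps 23.5% of the exonic bases of VHL, and a count over the whole gene does not show whether the reading frame is intact, so the targets of the HIF transcription factors, which VHL marks for degradation, were read as a second check. Of 10 such genes, 9 rose and 1 fell in VHL-KO cells at an adjusted p under 0.05. Among all genes tested 28.5% were higher and 31.2% lower by the same threshold. This list too was chosen with earlier results of these data known. NDRG1, a stress-responsive gene, had 12.1, 11.1 and 11.7 normalized CPM in VC against 729, 774 and 781 in VHL-KO samples (log2 fold change 6.03 ± 0.11). ADM, which encodes the peptide hormone adrenomedullin, rose by a log2 fold change of 3.55 ± 0.13. CA9, which encodes a carbonic anhydrase used as a marker of clear cell carcinoma, had 0, 0 and 2 counts in VC against 288, 247 and 233 counts in VHL-KO samples. The exception was EGLN3, a HIF prolyl hydroxylase, at 2.02, 1.38 and 1.76 normalized CPM in VC against 0.374, 0.927 and 0.891 in VHL-KO samples (log2 fold change -1.26 ± 0.35). The renal markers PAX8, KRT8, KRT18, VIM and MET were expressed in every sample, and PAX2 had no count in any.

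Nearly all of the replication and G1/S genes were lower in VHL-KO cells. Together they took 0.438%, 0.454% and 0.444% of all counts in VC replicates 1 to 3 and 0.122%, 0.130% and 0.139% in VHL-KO replicates 1 to 3. All 44 genes had at least 10 reads in some sample and were tested, among 17401 such genes in all. Of the 44, 43 were called lower at an adjusted p under 0.05, against a background of 31.2% of all genes tested that were called lower. Because the set was chosen with earlier results of these data known, such shares describe it and are not an independent test. The largest Benjamini-Hochberg adjusted p of the 43, by the quasi-likelihood test of edgeR, was 8.60e-06, and each of the 43 fell at least 2-fold, as 12.3% of all genes tested did. RFC2 and CCNE1 fell less than 2-fold with upper quartile factors. Among the fits with offsets for GC content and length, POLD3 and E2F7 had log2 fold changes as small as -0.91 and -0.99, under 2-fold. For E2F7 this did not hold in the offset fit whose value is given below. No member was called higher by edgeR, by DESeq2 or at an unadjusted p under 0.05 in either tool, where the background of higher calls was 28.5%. In 43 members every VHL-KO sample lay below every VC sample, which held for 33.5% of all genes tested. Fewer cells in S phase and less of these mRNAs in each cell cannot be told apart in bulk RNA.

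The median log2 fold change of the 44 members was -1.76, a 3.39-fold fall, beside -0.01 over all genes tested. The members' quartiles were -2.09 and -1.37, and 13 of them were called lower by at least 4-fold, as were 472 of the 17401 genes tested. Of all genes called, 4958 were higher and 5436 lower, and this split depended on scaling, with 3764 higher and 6737 lower by library size alone and 5712 higher and 4668 lower by upper quartile factors. The median of all genes was -0.20 with the first of these and 0.10 with the other. Since a scaling factor moves all genes of a sample alike, the members are also given relative to the median of all genes, with a difference of -1.75.

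**Figure D1:**
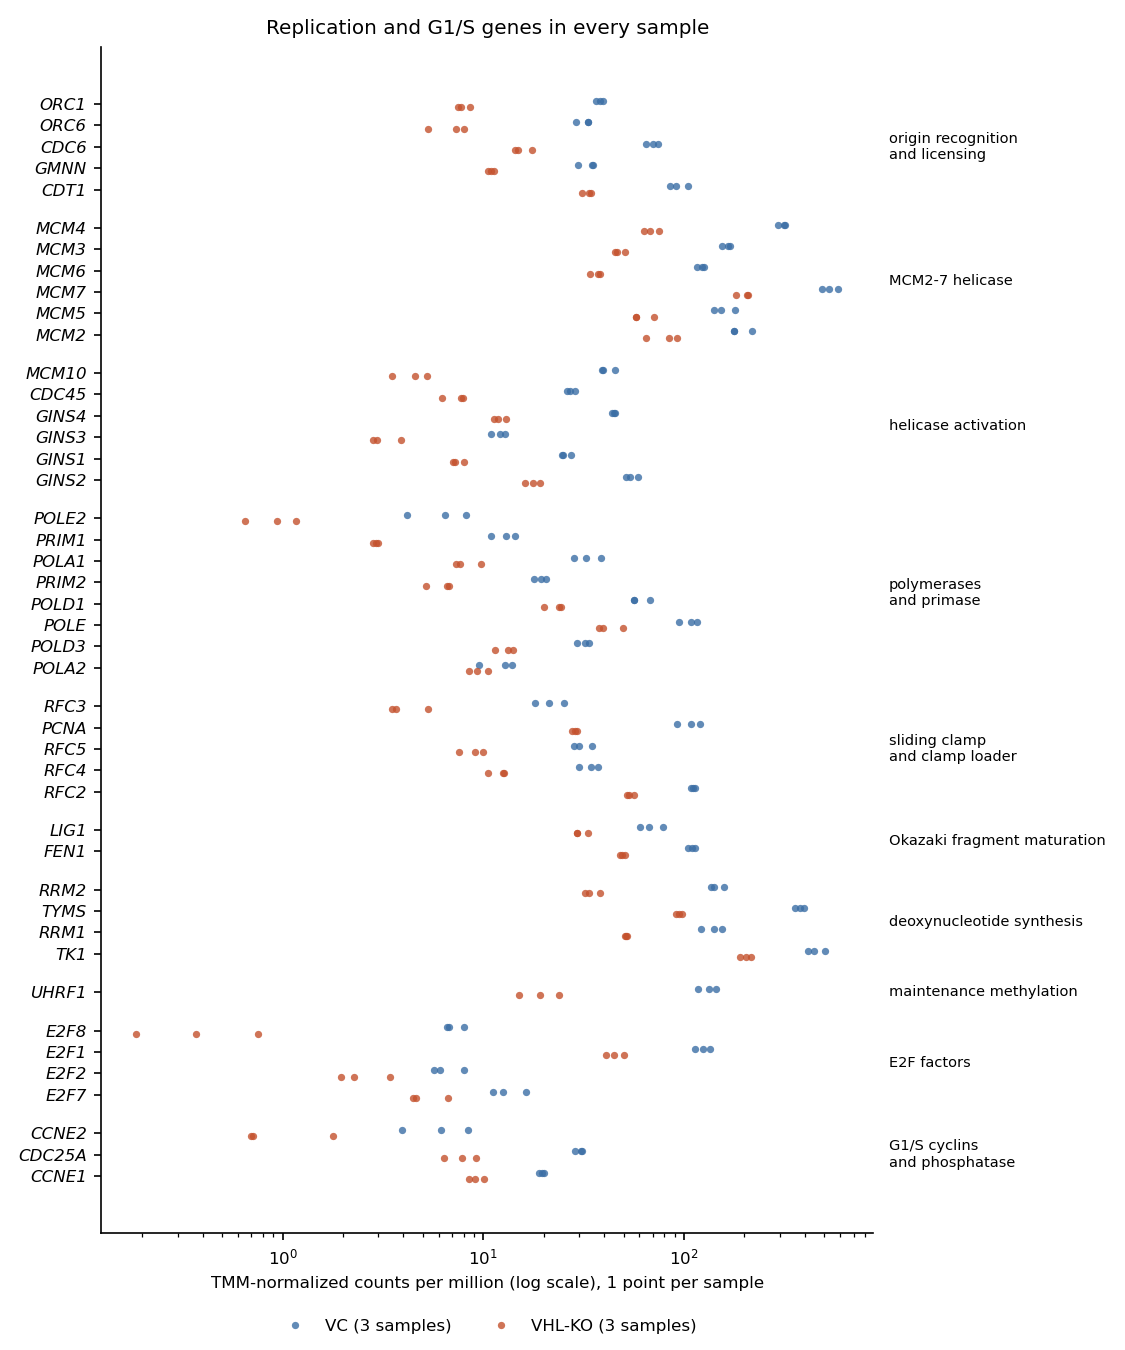
TMM-normalized CPM (log axis) of the 44 replication and G1/S genes, with 1 point for each of the 3 VC and 3 VHL-KO samples, grouped by role. Every VHL-KO sample lies below every VC sample in 43 genes, and POLA2 is the exception.

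**Figure D2:**
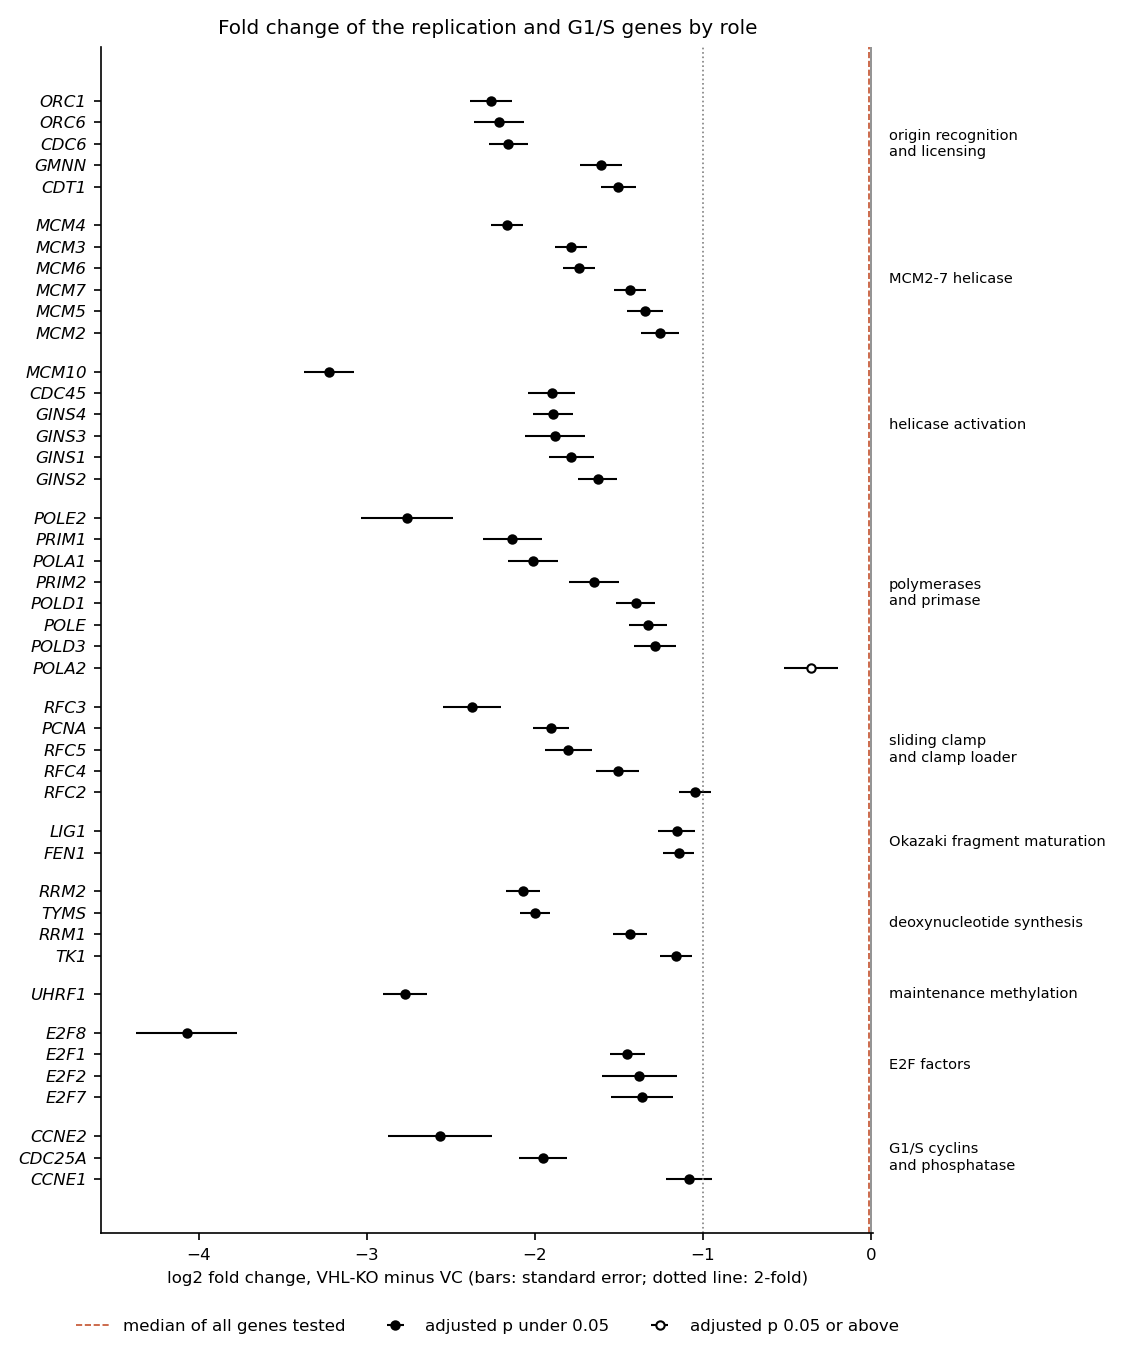
Log2 fold change (VHL-KO minus VC) of the same 44 genes with its standard error, by role, with filled points for an adjusted p under 0.05. The dashed line is the median of all 17401 genes tested, at -0.01, and the dotted line marks a 2-fold fall.

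Among the E2F transcription factors, E2F1 and E2F2 activate G1/S genes, whereas E2F7 and E2F8 are atypical members that repress them later in S phase. E2F8 (ENSG00000129173.13, chromosome 11 from 19224063 to 19241620 in GRCh38) had 226, 200 and 305 counts in the VC samples, or 6.62, 6.73 and 8.03 normalized CPM. In the VHL-KO samples it had 5, 8 and 16 counts, or 0.187, 0.371 and 0.750 normalized CPM. The lowest VC sample was several times the highest VHL-KO sample, and the log2 fold change of -4.07 ± 0.30 (Benjamini-Hochberg adjusted p = 2.83e-11 by the quasi-likelihood test of edgeR) was the largest fall of the 44 genes. The VHL-KO counts of this gene are few, and without VHL-KO replicate 1, 2 or 3 in turn the log2 fold change was -3.65, -3.99 or -4.70. E2F7, the other repressor, stood at 12.6, 11.2 and 16.4 normalized CPM in VC against 4.60, 4.45 and 6.66 in VHL-KO samples, a log2 fold change of -1.36 ± 0.18. Among these 4 E2F genes, E2F1 was the most abundant per length, with 46.2 ± 4.01 normalized CPM per kb of transcript in VC cells (SD, n = 3), where E2F7, E2F8 and E2F2 had 2.34, 1.92 and 1.27. It had 124, 135 and 113 normalized CPM in VC against 50.5, 41.1 and 44.8 in VHL-KO samples (log2 fold change -1.45 ± 0.10). E2F2 had 6.09, 7.98 and 5.69 normalized CPM in VC against 1.95, 2.27 and 3.42 in VHL-KO samples (log2 fold change -1.38 ± 0.22). The groups of all 4 E2F genes were apart, and the fall of E2F8 exceeded those of the other 3. E2F1, E2F2 and E2F7 lay within 1 SE of each other in this fit but not with offsets for GC content and length, where they were at -1.86, -1.53 and -1.04.

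The G1/S cyclins E1 and E2 bind and activate the kinase CDK2, and CDC25A is the phosphatase that removes inhibitory phosphates from it. CCNE1 had 19.0, 20.1 and 19.5 normalized CPM in the VC samples and 10.1, 8.48 and 9.10 in the VHL-KO samples. CCNE2 had 6.18, 3.94 and 8.38 in VC against 0.711, 0.695 and 1.78 in VHL-KO samples. Both cyclin genes fell with no overlap of the groups, CCNE1 by 1.08 ± 0.14 and CCNE2 by 2.56 ± 0.31 on the log2 scale (n = 3 per group). Another gene on the opposite strand overlaps 37.1% of the exonic bases of CCNE2, and strandedness of the counts is not stated, so its reads and those of its neighbor cannot be told apart. CDC25A had 28.7, 30.7 and 31.0 normalized CPM in VC against 6.40, 9.22 and 7.83 in VHL-KO samples, a log2 fold change of -1.95 ± 0.14.

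Promoters were read because these genes moved together and include known E2F targets. RefSeq promoters (GRCh38.p14, from 250 bases before to 50 bases after a transcription start) were matched for 38 members, 1 per gene, and not for MCM4, MCM5, GINS4, POLD3, E2F8 and CCNE2. On both strands, 4 words of the E2F motif were searched, TTTCCCGC, TTTGGCGC, TTTCGCGC and TTTGCCGC, together with the 5-letter word CCAAT of NF-Y, another factor of cell cycle promoters. At least 1 of the 4 E2F words stood in 20 of the 38 promoters (52.6%), beside 3.31% of all 35116 promoters in the table. These belong to 27305 genes, some with more than 1 promoter, and were not limited to genes tested here. The share of E2F words describes a list that includes known E2F targets, and not the fall of its genes. CCAAT stood in 22 (57.9%), beside 34.6% of all promoters. The median log2 fold change was -1.76 for the 20 members with an E2F word and -1.63 for the 18 without. It was -1.85 for the 22 members with CCAAT and -1.45 for the 16 without. Differences between medians of members with and without a word were not tested. By single E2F words, members with TTTCCCGC or TTTGGCGC had a lower median than those without. The reverse held for TTTCGCGC (-1.43 in 5 members, -1.78 in 33 without) and for TTTGCCGC, which stood in 1 member (-1.45, against -1.74). Shown are the promoters of the member with the largest fall for which one could be shown among the E2F factors (E2F1, chr20:33686336-33686635, minus strand), the MCM2-7 subunits (MCM3, chr6:52284693-52284992, minus strand) and the genes of deoxynucleotide synthesis (RRM2, chr2:10122489-10122788, plus strand), and that of the member nearest to no change (POLA2, chr11:65261712-65262011, plus strand). Each is written 5′ to 3′ along its gene, with matches to the 5 words on either strand in capitals.
E2F1: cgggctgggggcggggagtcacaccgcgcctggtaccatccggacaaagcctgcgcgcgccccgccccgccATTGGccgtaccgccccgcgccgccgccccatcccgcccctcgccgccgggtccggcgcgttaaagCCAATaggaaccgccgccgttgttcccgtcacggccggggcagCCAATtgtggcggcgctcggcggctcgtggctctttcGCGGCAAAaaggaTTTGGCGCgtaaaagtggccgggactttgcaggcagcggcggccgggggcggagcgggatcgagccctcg
MCM3: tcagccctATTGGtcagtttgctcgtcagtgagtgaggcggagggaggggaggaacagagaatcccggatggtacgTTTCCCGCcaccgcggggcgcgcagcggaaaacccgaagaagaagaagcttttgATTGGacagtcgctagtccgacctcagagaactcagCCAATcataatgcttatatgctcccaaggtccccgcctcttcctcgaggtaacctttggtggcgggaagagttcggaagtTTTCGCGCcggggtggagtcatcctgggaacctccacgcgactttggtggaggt
RRM2: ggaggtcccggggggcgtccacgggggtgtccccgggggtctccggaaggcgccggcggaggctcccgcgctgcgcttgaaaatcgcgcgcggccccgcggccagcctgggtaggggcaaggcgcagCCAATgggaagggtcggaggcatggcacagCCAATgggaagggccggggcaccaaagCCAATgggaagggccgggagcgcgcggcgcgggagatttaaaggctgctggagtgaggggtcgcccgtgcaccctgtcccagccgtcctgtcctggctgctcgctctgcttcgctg
POLA2: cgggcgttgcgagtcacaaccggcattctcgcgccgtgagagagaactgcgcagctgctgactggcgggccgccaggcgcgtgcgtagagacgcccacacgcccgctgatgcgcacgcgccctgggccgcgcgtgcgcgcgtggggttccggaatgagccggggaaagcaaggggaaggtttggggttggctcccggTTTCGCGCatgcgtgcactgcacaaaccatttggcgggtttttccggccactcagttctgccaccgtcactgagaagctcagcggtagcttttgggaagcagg
The E2F1 promoter held E2F words on both strands between positions -33 and -13 from the start and 3 CCAAT matches upstream of them. MCM3 had E2F words at -174 and at -4 and 3 CCAAT matches, and RRM2 had 3 CCAAT matches and none of the E2F words. POLA2, the member that was not called, had 1 E2F word at -53 and no CCAAT. A match describes letters in this window and was not tied to binding of any factor.

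The 5 members of origin recognition and licensing had a median log2 fold change of -2.16. ORC1, the largest subunit of the origin recognition complex, had 39.5, 37.97 and 36.4 normalized CPM in VC against 7.49, 7.74 and 8.58 in VHL-KO samples (log2 fold change -2.26 ± 0.13). ORC6, its smallest subunit, and CDC6, the ATPase that joins it to load the helicase, fell by 2.21 ± 0.15 and 2.16 ± 0.11 on the log2 scale. Other subunits of the complex, which are not members, fell less, with log2 fold changes of -1.44 ± 0.16 for ORC2, -1.13 ± 0.16 for ORC3, -1.002 ± 0.13 for ORC5 and -0.63 ± 0.16 for ORC4, whose groups overlapped. CDT1, the licensing factor that brings MCM2-7 to origins, had 91.8, 104 and 85.4 normalized CPM in VC against 33.7, 31.0 and 34.6 in VHL-KO samples. Its inhibitor geminin, from the gene GMNN, had 34.7, 29.8 and 35.1 in VC against 10.6, 11.3 and 10.98 in VHL-KO samples. Factor and inhibitor were both high in every VC sample and low in every VHL-KO sample, with log2 fold changes of -1.50 ± 0.10 and -1.60 ± 0.13.

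All 6 subunits of the MCM2-7 helicase fell, with a median log2 fold change of -1.58. MCM4 fell most, from 294, 317 and 318 normalized CPM in VC to 63.5, 68.0 and 75.5 in VHL-KO samples (log2 fold change -2.17 ± 0.10). MCM2 fell least, from 179, 218 and 178 in VC to 64.9, 84.2 and 92.0 in VHL-KO samples (log2 fold change -1.25 ± 0.11), and 23.6% of its exonic bases overlap a gene on the opposite strand. MCM3, MCM6, MCM7 and MCM5 lay between them with log2 fold changes of -1.79, -1.74, -1.43 and -1.34. The proteins form a ring with 1 copy of each subunit, but the transcripts were not at equal levels. Per kb of transcript, MCM7 stood highest in VC cells at 217 ± 20.2 normalized CPM and MCM6 lowest at 32.4 ± 1.23 (SD, n = 3). In VHL-KO cells the same 2 genes were the highest and the lowest per kb, at 80.3 ± 6.11 and 9.70 ± 0.58. MCM4 was second in VC cells at 76.2 ± 3.33 normalized CPM per kb and came down to 17.0 ± 1.49 in VHL-KO cells, within the spread of MCM5 (18.0 ± 2.21).

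Of the 6 genes for helicase activation, MCM10 fell most. It encodes a protein that binds the assembled helicase and is needed for origin firing, and it does not belong to the MCM2-7 ring. MCM10 (ENSG00000065328.17, chromosome 10 from 13161558 to 13211110) had 39.1, 39.4 and 45.5 normalized CPM in VC against 3.52, 5.24 and 4.60 in VHL-KO samples. Its log2 fold change was -3.23 ± 0.15 (Benjamini-Hochberg adjusted p = 6.19e-15 by the quasi-likelihood test of edgeR), the second largest fall of the 44. CDC45 and the 4 GINS subunits, which travel with MCM2-7 at the fork, had log2 fold changes of -1.90 for CDC45, -1.89 for GINS4, -1.88 for GINS3, -1.78 for GINS1 and -1.63 for GINS2. GINS2, with the smallest fall, went from 54.0, 58.9 and 51.2 normalized CPM in VC to 19.2, 17.6 and 16.2 in VHL-KO samples. With offsets for GC content and length these 5 spread further, from -2.07 for CDC45 to -1.34 for GINS1. An opposite-strand gene covers 23.4% of the exonic bases of GINS4.

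Among the 8 polymerase and primase members, 7 fell and 1 was not called. POLE2, the second subunit of the leading-strand polymerase epsilon, had 6.41, 4.17 and 8.24 normalized CPM in VC against 1.16, 0.649 and 0.938 in VHL-KO samples, a log2 fold change of -2.76 ± 0.27. POLE, its catalytic subunit, fell by 1.33 ± 0.11 on the log2 scale, as did POLD1 and POLD3 of the lagging-strand polymerase delta by 1.40 ± 0.11 and 1.29 ± 0.13. Polymerase alpha-primase makes the RNA-DNA primers, and its catalytic subunit POLA1 and the primase subunits PRIM1 and PRIM2 had log2 fold changes of -2.01 ± 0.15, -2.13 ± 0.18 and -1.65 ± 0.15. POLA2, the accessory subunit of the same complex (ENSG00000014138.9, chromosome 11 from 65261913 to 65305959), had 12.9, 13.9 and 9.56 normalized CPM in VC against 9.32, 8.53 and 10.5 in VHL-KO samples. The highest VHL-KO sample was above the lowest VC sample, and the log2 fold change of POLA2 was -0.35 ± 0.16 (Benjamini-Hochberg adjusted p = 0.0610 by the quasi-likelihood test of edgeR). Over the alternatives it ranged from -0.55 with library size alone to -0.22, and it was -0.23 without VC replicate 2. POLA2 was called lower without VC replicate 3, with library size alone and without a filter on low counts, where the adjusted p of the same quasi-likelihood test with Benjamini-Hochberg adjustment was 0.00563, 0.00695 and 0.0449, and 0.235 was the largest over all alternatives. Of its exonic bases, 16.8% lie in another gene on the same strand, as do 15.1% of those of PRIM1, and reads in such overlaps cannot be assigned with certainty.

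**Figure D3:**
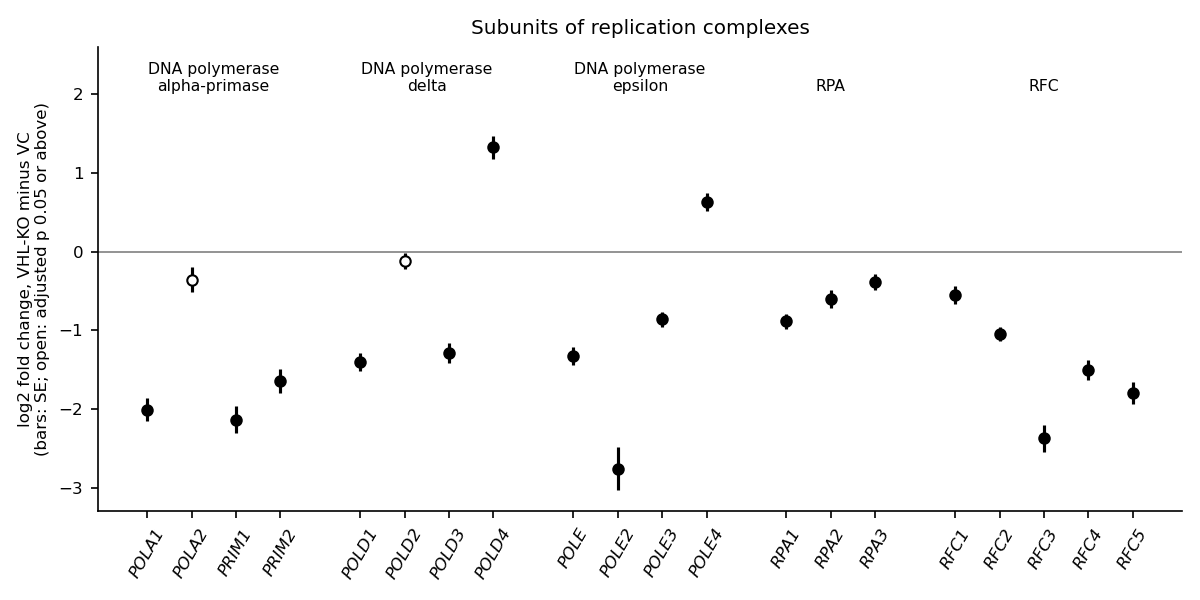
Log2 fold change (VHL-KO minus VC) with its standard error for the subunits of the 3 replicative polymerases, RPA and RFC, members and other genes together, with open points for an adjusted p of 0.05 or above. POLD4 and POLE4 lie above 0 and the other called subunits below it, and POLA2 and POLD2 are open.

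Subunits of the same polymerase went in opposite directions where genes outside the 44 were added. POLD4, the smallest subunit of polymerase delta, had 8.05, 8.11 and 6.03 normalized CPM in VC against 17.1, 19.2 and 19.2 in VHL-KO samples. POLE4, a histone-fold subunit of polymerase epsilon, had 32.1, 35.1 and 27.3 in VC against 51.7, 48.0 and 46.7 in VHL-KO samples. Both rose with no overlap of the groups, by log2 fold changes of 1.32 ± 0.15 and 0.63 ± 0.11, and both were called higher under every alternative, though with offsets for GC content and length the values were 0.86 and 0.42. Overlap with another gene on the same strand covers 21.3% of the exonic bases of POLD4. The second histone-fold subunit, POLE3, fell by 0.86 ± 0.10 on the log2 scale. POLD2 was at 228, 270 and 203 normalized CPM in VC against 221, 214 and 211 in VHL-KO samples; the log2 fold change of -0.12 ± 0.10 was not called, though it was called lower with library size alone (-0.31) and with offsets for GC content and length (-0.35).

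The sliding clamp PCNA, which tethers polymerases to DNA, fell by 1.90 ± 0.11 on the log2 scale. RFC3, a subunit of the loader that opens the clamp, had 21.4, 18.2 and 25.1 normalized CPM in VC against 3.67, 5.33 and 3.52 in VHL-KO samples (log2 fold change -2.37 ± 0.17). RFC2 had 111, 114 and 109 in VC against 56.2, 51.8 and 53.4 in VHL-KO samples; the log2 fold change of -1.05 ± 0.09 was the smallest fall among the 43 members called, except with offsets for GC content, where POLD3 had the smallest. RFC5 and RFC4 lay between them at -1.80 ± 0.14 and -1.51 ± 0.13, and RFC1, the large subunit and not a member, fell by 0.56 ± 0.12, a call that was lost with the offsets for GC content. Okazaki fragments are trimmed by the flap endonuclease FEN1 and sealed by the ligase LIG1. FEN1 had 109, 113 and 105 normalized CPM in VC against 48.0, 50.9 and 49.1 in VHL-KO samples. LIG1 had 67.0, 78.4 and 60.5 in VC against 29.5, 29.5 and 33.4 in VHL-KO samples. The 2 genes fell alike, with log2 fold changes of -1.14 ± 0.09 and -1.16 ± 0.11.

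For deoxynucleotide synthesis, RRM1 and RRM2 encode the large and small subunits of ribonucleotide reductase, TYMS makes thymidylate and TK1 recovers thymidine. RRM2 had 141, 137 and 159 normalized CPM in VC against 32.2, 33.6 and 38.1 in VHL-KO samples (log2 fold change -2.07 ± 0.10). RRM1 fell by 1.43 ± 0.10 and TYMS by 2.00 ± 0.09 on the log2 scale. Overlap with a gene on the opposite strand covers 47.9% of the exonic bases of TYMS. TK1, the member with the highest level per length, had 445, 507 and 413 normalized CPM in VC against 204, 191 and 217 in VHL-KO samples, which is 318 ± 33.4 and 142 ± 9.03 normalized CPM per kb (SD, n = 3). Its log2 fold change of -1.16 ± 0.09 was the smallest of this group, but with offsets for GC content and length it was -1.74, and RRM1 then had the smallest. UHRF1 reads hemimethylated DNA behind the fork and recruits the maintenance methyltransferase DNMT1. UHRF1 had 118, 145 and 133 normalized CPM in VC against 15.1, 19.1 and 23.8 in VHL-KO samples, a log2 fold change of -2.77 ± 0.13, and DNMT1, from the wider list, fell by 2.20 ± 0.10.

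Because scaling shifts all genes of a sample alike, 7 pairs of members were compared by the log2 ratio of their counts within each sample, which no scaling factor changes. Ratios are not corrected for length, so only their difference between groups was read, by a two-sided exact permutation test over samples that cannot give a p under 0.1 with 3 against 3. E2F8 fell relative to E2F1 in its mean ratio, from -4.23, -4.32 and -3.82 in VC to -7.94, -6.71 and -5.86 in VHL-KO samples (difference -2.71; exact p = 0.1, the smallest possible, and 0.175 adjusted over the 7 pairs). MCM10 relative to MCM2 had ratios of -2.19, -2.46 and -1.97 in VC against -4.20, -4.00 and -4.32 in VHL-KO samples (difference -1.96, with the same exact p and adjusted p). The ratios of POLE2 to POLE (difference -1.40) and of RRM2 to RRM1 (difference -0.64) also did not overlap between the groups and gave the same exact p. For CCNE2 relative to CCNE1 the difference was -1.50 with overlapping groups (exact p = 0.2, adjusted 0.28). CDT1 relative to GMNN differed by 0.10 (exact p = 0.6, adjusted 0.7) and E2F7 relative to E2F1 by 0.10 (exact p = 0.7, adjusted 0.7), both less than the SDs of the ratios within a group, which were 0.27 and 0.12 for the first pair and 0.41 and 0.36 for the second. Neither holds with offsets for GC content and length, which differ between genes and move ratios: the log2 fold changes were then -1.97 for CDT1 and -1.66 for GMNN, and -1.86 for E2F1 and -1.04 for E2F7. None of the 7 could pass a threshold of 0.05. The ratios of POLD4 to POLD1 and of POLE4 to POLE, chosen after their values were seen and not tested, were higher by 2.73 and 1.97 in VHL-KO samples, with no overlap.

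**Figure D4:**
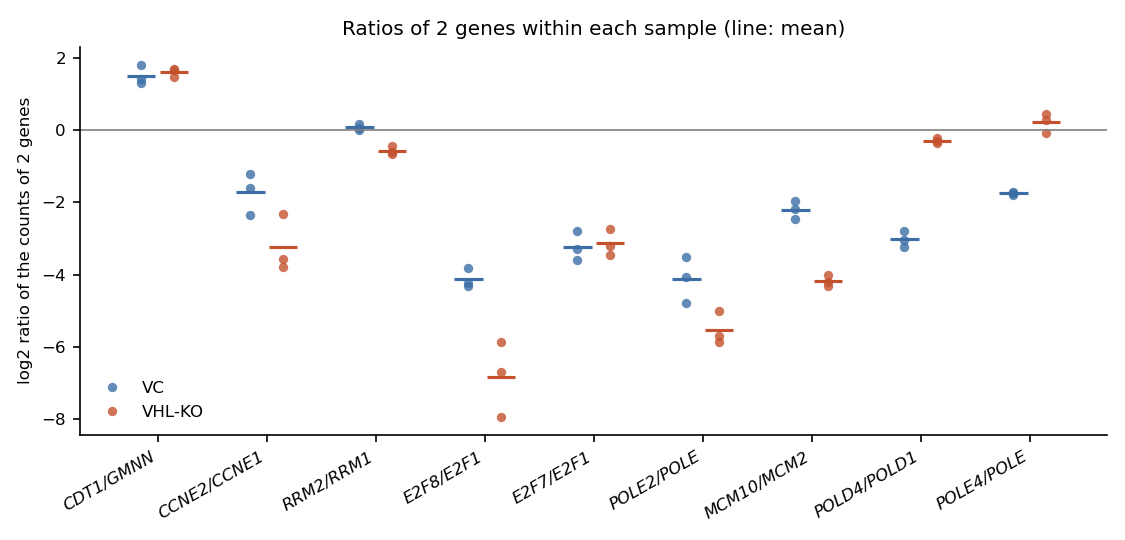
Log2 ratio of the counts of 2 genes within each sample, for 7 pairs of members and 2 pairs chosen after their values were seen, with 1 point per sample and a line at the mean of each group of 3. The VHL-KO points lie apart from the VC points for RRM2/RRM1, E2F8/E2F1, POLE2/POLE, MCM10/MCM2 and both added pairs, and overlap them for CDT1/GMNN, CCNE2/CCNE1 and E2F7/E2F1.

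Replicates of a group differed little in the median of these genes, though single genes of low level, such as E2F8, CCNE2 and POLE2, varied more. Relative to the VC mean of each gene, the median member stood at -0.02, 0.03 and 0.02 on the log2 scale in VC replicates 1 to 3 and at -1.72, -1.69 and -1.71 in VHL-KO replicates 1 to 3. All 44 members were below their VC mean in each VHL-KO sample. Across genes, the log2 fold change rose with the GC content of the transcript, in 13144 genes with a mean of at least 1 CPM (Spearman's rho 0.40; genes share the same 6 libraries and are not independent replicates). The members' median GC content was 47.7%, near the 47.9% of all genes tested. In the 4 members with a GC content of 60% or more the median log2 fold change was -1.42, where that of all genes in this range was 0.46. In the 3 members under 40% it was -2.37, where that of all genes was -0.54. When each library was given offsets for GC content and length, the members' median was -1.73 and 43 were called lower.

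The other genes of replication and G1/S control, 56 in number, were all tested, and 47 fell, 4 rose and 5 were not called. Among all genes tested 31.2% were called lower and 28.5% higher. Their median log2 fold change was -1.37. The 5 largest falls were in DNA2, a nuclease of Okazaki fragment processing (log2 fold change -3.19 ± 0.24), FBXO5, an inhibitor of the anaphase-promoting complex (-2.74 ± 0.22), DSCC1, part of an alternative clamp loader (-2.68 ± 0.18), DTL, the adaptor for the degradation of CDT1 in S phase (-2.53 ± 0.13), and ATAD5, which unloads PCNA (-2.20 ± 0.29, and -1.60 with offsets for GC content fitted on genes of at least 1 CPM). DNA2 had 8.82, 7.27 and 10.1 normalized CPM in VC against 0.786, 1.30 and 0.797 in VHL-KO samples, and the groups of the other 4 did not overlap either. Besides POLD4 and POLE4, the genes that rose were RNASEH2C, a subunit of ribonuclease H2 (0.66 ± 0.10), and TFDP2, a dimerization partner of E2F factors (0.59 ± 0.10), while the partner TFDP1 fell by 1.40 ± 0.09. RNASEH2C has 28.9% of its exonic bases under a gene on the opposite strand. The CDC7 kinase and its activator DBF4, which fire origins, had log2 fold changes of -2.07 ± 0.26 and -1.98 ± 0.17, and the trimeric single-strand binding protein fell less, by 0.89 ± 0.10, 0.60 ± 0.12 and 0.39 ± 0.10 for RPA1, RPA2 and RPA3. POLD2, RRM2B, E2F6, FBXW7 and RNASEH2A were not called, and of these only FBXW7 was uncalled under every alternative. RRM2B was called higher in 9 of 17 alternatives, RNASEH2A lower without VHL-KO replicate 3 and with all offsets for GC content, and E2F6 lower with library size alone. RNASEH2A had at most 13 counts in a sample, and 53.3% of its exonic bases lie in another gene on the same strand.

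The genes of mitosis and G2/M were read as the next wave of the cycle. All 30 were called lower, as were 31.2% of all genes tested. Their median log2 fold change was -2.05, beside -1.76 for the replication and G1/S members. PRC1, which is among them, had at most 28 counts in a sample, and 57.6% of its exonic bases lie in another gene on the same strand. The largest falls were in the spindle checkpoint genes TTK (-3.06 ± 0.26) and BUB1B (-2.81 ± 0.20) and in the kinesin KIF23 (-2.80 ± 0.14). TTK had 10.8, 7.64 and 15.5 normalized CPM in VC against 1.16, 1.95 and 0.985 in VHL-KO samples. Members and mitotic genes lay on the same side of 0, and the difference between the 2 medians was not tested.

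**Figure D5:**
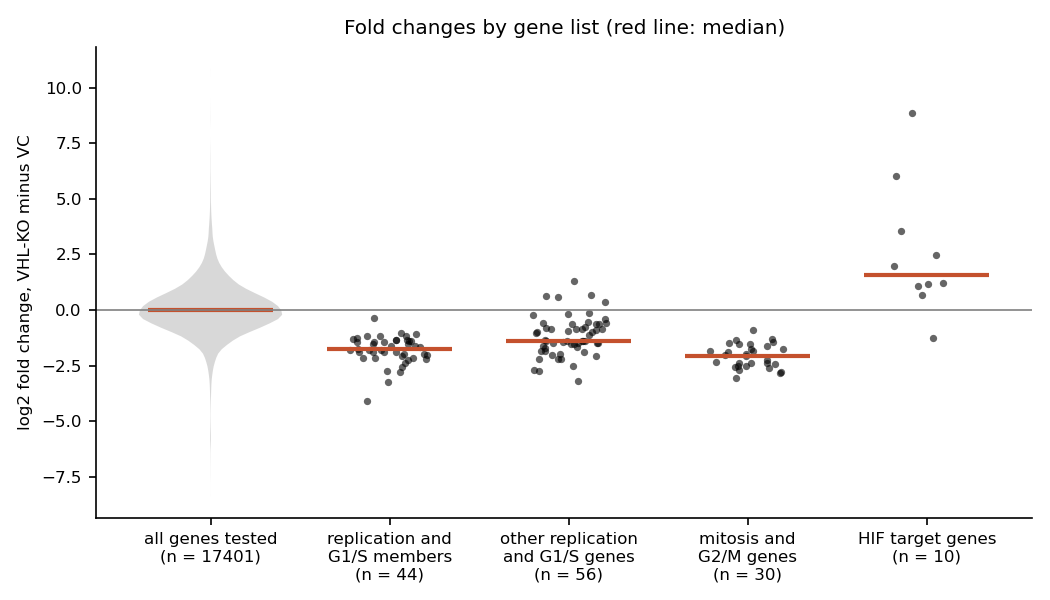
Log2 fold change (VHL-KO minus VC) of the 44 members, 56 other replication and G1/S genes, 30 mitosis and G2/M genes and 10 HIF target genes, with 1 point per gene and a red line at the median, beside the distribution of all 17401 genes tested. The medians are -0.01 for all genes, -1.76 for members, -1.37 for the other replication genes, -2.05 for mitotic genes and 1.60 for HIF targets; the highest HIF point, CA9, rests on 2 counts in VC cells and depends on the prior count of the fit.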

How the data were processed

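RNA-seq of 3 VC and 3 VHL-KO samples was analysed, grouped by the submitters' labels. The authors deposited raw counts per gene; per the study's methods and the submitters' processing notes, reads were trimmed (Trim Galore, Cutadapt), those of at least 20 nt were aligned to GRCh38.p13 with STAR, uniquely mapped reads were kept (SAMtools) and counted with HTSeq. Tool versions, annotation release and strandedness are not given in the sources used here.

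Genes reaching 10 reads in 1 or more samples were compared with edgeR 4.0.16 (TMM factors, quasi-likelihood F test, two-sided, Benjamini-Hochberg adjustment over 17401 genes) in R 4.3.3. Standard errors are the absolute log2 fold change over the square root of F. Ratios used a prior of 0.5 counts. Positions, GC contents, overlaps and lengths (canonical transcript) came from GENCODE 44 on GRCh38, and promoters from RefSeq. Figures were drawn with matplotlib 3.10.9. Spread within a group exceeded counting noise (chi-square per degree of freedom 6.43 to 35.3).

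Members and lists were chosen with earlier results of these data known. Every member is named, with values per sample for the largest and smallest change of each role and for the E2F, cyclin E, CDC25A, CDT1 and GMNN genes; from the other lists, the 5 largest falls and rises (replication) or the 3 largest changes (mitosis, HIF) are named. Other genes were chosen after their values were seen. Alternatives were DESeq2 1.42.0, 3 other scalings, 2 other filters, each sample left out, a replicate block and offsets for GC content and length (natural splines, 5 degrees of freedom); offsets fitted on genes of at least 1 CPM were added after seeing the data.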

Additional observations from a re-analysis of the deposited data

How the results depend on the processing

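The calls of 43 of the 44 members were the same under all 17 alternatives in tool, scaling, filter, samples, block and offsets (16 for E2F8, which was not tested when 10 reads were required in every sample); POLA2 was the exception. Counts of members called lower ranged from 42 to 44, and those called higher were 0 throughout. The members' median log2 fold change, -1.76, was -1.74 with DESeq2, -1.735 with relative log expression factors, -1.65 with upper quartile factors, -1.95 with library size alone, -1.80 with no filter and -1.71 with 10 reads in every sample. It lay between -1.75 and -1.69 when single samples were left out. With offsets for GC content and length it was -1.73, also with the replicate block, and with the offsets added after seeing the data, fitted on genes of at least 1 CPM because the first left a rho of 0.06 with GC content, it was -1.71, also with the block. The SD of the median over the VHL-KO samples was 0.016. Such offsets take out any real difference tied to GC content as well.

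Some values near 0 changed sign. The log2 fold change of POLD2 was between -0.194 and 0.0176 when single samples were left out; with the first offsets that of FBXW7 was 0.0343 (0.0338 with the block) and with the added ones 0.0790 (0.0781 with the block), where that of E2F6 was 0.0416 (0.0404 with the block). When single samples were left out, the difference in log2 ratio ranged from -0.0091 to 0.25 for CDT1/GMNN and from -0.10 to 0.31 for E2F7/E2F1. The cause was not tested. Ranks within a role also depended on offsets, with which MCM6, GINS1, GMNN and RRM1 had the smallest falls of their roles in place of MCM2, GINS2, CDT1 and TK1, and ORC6 and TYMS the largest in place of ORC1 and RRM2. With the added offsets TK1 was at -1.77, also with the block. Other replication genes called lower ranged from 44 to 49 and mitotic genes from 29 to 30.

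A pairing of samples beyond a shared number was not seen: deviations of same-numbered samples correlated at 0.06, -0.0004 and 0.03. With the number as a replicate block, 4847 genes were higher and 5437 lower, 43 members were lower, RRM2B was called higher, the members' median was -1.76 and sign-flip tests of the ratios could not go under 0.25. Depth limits genes such as E2F8, with 5 counts in its lowest sample.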

Other observations

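Marker genes of the kidney changed among themselves. LHX1, a transcription factor of the developing nephron, had 56.0, 57.6 and 52.4 normalized CPM in VC against 15.9, 18.6 and 17.6 in VHL-KO samples (log2 fold change -1.67 ± 0.11). PAX8, a lineage factor of renal epithelium, had 440, 459 and 384 in VC against 611, 601 and 629 in VHL-KO samples (log2 fold change 0.52 ± 0.09), and the simple epithelial keratin KRT8 rose by a log2 fold change of 0.51 ± 0.09. Over the alternatives these values went down to 0.33 for PAX8 and 0.28 for KRT8. VIM and MET were not called, with log2 fold changes of -0.07 and 0.04. Markers of lymphocytes and endothelial cells were near 0. Summed over 4 lymphocyte genes the level was at most 0.135 normalized CPM in any sample, and over 3 endothelial genes at most 0.711. Among these, PECAM1 was called higher, with 1, 5 and 0 counts in VC against 14, 7 and 9 counts in VHL-KO cells (log2 fold change 2.73 ± 0.90). The macrophage list reached 5.52 normalized CPM, most of it CD14, which had 1.70, 1.68 and 1.29 in VC against 4.12, 5.24 and 3.56 in VHL-KO samples, while C1QA had no count. Among 4 fibroblast genes COL1A1 was the most abundant, at 35.1, 36.5 and 29.4 normalized CPM in VC against 27.7, 24.8 and 22.9 in VHL-KO samples, and PDGFRB fell by 1.94 ± 0.20 on the log2 scale. COL1A2 had at most 1 count in any sample and DCN at most 2. The part of these genes in the change of the replication genes was not tested.

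The levels of 2 further genes of deoxynucleotide pools are given. SAMHD1, which breaks down deoxynucleotides, had 61.9, 61.9 and 66.5 normalized CPM in VC against 24.7, 21.6 and 26.0 in VHL-KO samples (log2 fold change -1.40 ± 0.11). RRM2B, the small subunit of ribonucleotide reductase used outside S phase, had 15.1, 12.7 and 21.8 in VC against 19.6, 24.0 and 19.7 in VHL-KO samples, and the groups overlapped. Its log2 fold change was 0.35 ± 0.16 (Benjamini-Hochberg adjusted p = 0.0631 by the quasi-likelihood test of edgeR), and over the alternatives it ranged from 0.15 to 0.96 with an adjusted p of the same quasi-likelihood test with Benjamini-Hochberg adjustment between 4.18e-09 and 0.473. It was called higher in 9 of 17 alternatives, among them those with relative log expression or upper quartile factors, with 10 reads in every sample, without VC replicate 3 and with all 4 fits that used offsets for GC content and length. These genes were chosen after their values were seen.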
